A study of Mus musculus with 2 samples.

Results

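Mouse complement genes, 10 in all, were followed through 2 single-cell RNA libraries of white blood cells from the aorta. They are the 3 chains of C1q (C1qa, C1qb, C1qc), the component C4b, the components of the alternative pathway C3, Cfb and Cfp, the terminal component C6, and the receptors C3ar1 and C5ar1. Members were picked by gene symbol, each symbol matched 1 row of the feature lists, and the 10 genes stand among 32285 measured. The first library came from a group treated with ZnDPA@siIRF5, in which a small interfering RNA is directed at interferon regulatory factor 5 (Irf5), and the second from a control group. The study asked how that treatment acts on macrophages of atherosclerotic aortas. Cells were aortic leukocytes positive for CD45, the antigen shared by white blood cells. The labels give no genotype, strain, diet, age, sex, number of pooled animals or control preparation. With 1 library per group there is no replicate, no test and no p-value, and a difference between libraries cannot be told apart from a difference between animals or preparations.

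Complement is a cascade of plasma and tissue proteins that tags targets for uptake. C1q, built from its 3 chains, starts the classical pathway on immune complexes and dying cells and acts as a bridge for phagocytosis, and macrophages are a main source of it. C4 is split after C1q binding. C3, the point where all pathways meet, is split by convertases that contain factor B (Cfb) and are stabilised by properdin (Cfp). C6 belongs to the membrane attack complex, while C3ar1 and C5ar1 are the receptors of the fragments C3a and C5a.

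The kept cells numbered 11805 in the treated-labelled library and 11523 in the control-labelled library, with medians of 4543 and 4629 UMIs (unique molecular identifiers, 1 for each captured transcript) per cell. Levels are CPM, UMIs of the gene per 1000000 UMIs of the cells named, summed over those cells. Since only transcript ends are counted, levels are not divided by gene length. Intervals are exact 95% intervals of counting error only, and they do not cover spread between animals. Cells were clustered without complement genes and named from markers that include none, so no cluster owes its existence to a member. Irf5, the gene targeted, stood at 124 CPM in macrophage-like cells of the treated-labelled library and at 109 in the control-labelled library, so the transcript was not lower there. Ptprc, which encodes CD45, was found in 87.1% and 86.8% of kept cells, but in only 35.7% and 38.8% of fibroblast-like cells. 37 barcodes of kept cells occur in both libraries.

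The 3 C1q chains were macrophage transcripts. C1qa (chromosome 4, 136895917 to 136898803 in GRCm38) reached 4430 CPM (interval 4394 to 4467) in the 1938 macrophage-like cells of the treated-labelled library and 4776 CPM (4733 to 4819) in the 1505 of the control-labelled library. C1qb (chromosome 4, 136880129 to 136886187) stood at 3730 and 3932 CPM, and C1qc (chromosome 4, 136889804 to 136893065) at 2843 and 3173 CPM. Those cells made up 16.4% and 13.1% of kept cells but held 86.7% and 88.9% of all C1q UMIs. Among named classes with at least 50 cells in each library, classical monocyte-like cells came next, with a summed C1q level of 1107 and 1481 CPM. T cell-like cells, which should not make C1q, held 49.1 and 50.7 CPM in sum, which is read here as the background of these libraries. Neutrophil-like cells were not far above it, at 82.8 and 77.1 CPM.

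The promoters of C1qb and C1qc were matched to the RefSeq promoter table (GRCm38.p6). They are shown because the chains, neighbours on the minus strand of chromosome 4, were each highest in macrophage-like and next highest in classical monocyte-like cells, among named classes. Each is the 250 bases before the start site, with capitals marking GAGGAA (the core of PU.1 sites, or TTCCTC on the other strand). PU.1 is a transcription factor of myeloid cells.
C1qb, chr4:136886201-136886450, minus strand: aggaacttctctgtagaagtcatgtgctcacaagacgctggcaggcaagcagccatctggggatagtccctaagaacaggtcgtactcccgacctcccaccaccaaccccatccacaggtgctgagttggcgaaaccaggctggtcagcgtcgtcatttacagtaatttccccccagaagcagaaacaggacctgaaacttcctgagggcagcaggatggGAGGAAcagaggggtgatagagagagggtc
C1qc, chr4:136892915-136893164, minus strand: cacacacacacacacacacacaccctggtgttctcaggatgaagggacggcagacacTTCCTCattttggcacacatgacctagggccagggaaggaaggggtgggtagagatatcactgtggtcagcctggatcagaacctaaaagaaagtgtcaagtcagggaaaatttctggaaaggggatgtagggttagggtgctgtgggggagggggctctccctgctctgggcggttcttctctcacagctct
C1qb held GAGGAA at position -30 and C1qc held TTCCTC at -193, counted from the start site in the RefSeq table. That start lies 13 bases before the gene's first base given above for C1qb, and 151 bases inside the gene for C1qc, so part of the C1qc window is within the annotated gene. Over all 32851 promoters of the same length, 23.3% held GAGGAA on either strand, so these are common letters, and a match is a description and not a site. Of the 10 members 7 were matched, and C1qa, C4b and Cfb were not. Among the matched promoters only those of C1qb and C1qc held these letters. The promoter of C3ar1 did not. Yet C3ar1 was also highest in macrophage-like and next highest in classical monocyte-like cells, among named classes.

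Macrophage-like cells fell into 13 sub-clusters, of which 6 could be named from marker lists of states. Summed C1q was high in most of them. The resident sub-cluster (M1, led by Lyve1, a marker of resident vessel-wall macrophages) held 12906 and 14189 CPM. The inflammatory chemokine sub-cluster (M12) held 11831 and 12890 CPM, and the foamy sub-cluster (M6, led by Trem2, a marker of lipid-laden cells) held 11599 and 12590 CPM. A further sub-cluster led by Lyz1, Retnla and Fn1 (M4) stood apart at 3618 and 3902 CPM, and its intervals did not overlap those of any of these 3. Only the unnamed M10 (37 and 30 cells) was lower, at 1203 and 972 CPM, and 62.2% and 53.3% of its cells had no UMI of any chain. Cells with at least 2000 UMIs were thinned to 2000, and those with fewer were left out, here and in later thinned values. The median M4 cell then had 2 C1q UMIs in each library (109 and 58 cells), against 24 and 28 in M1 (400 and 355 cells). The lower quartile of M4 was 0 UMIs in each library and the upper quartile 11 and 9.75, which lay below the lower quartile of M1 at 18 and 22. The small serosal sub-cluster (M11, 21 and 14 cells) held 9995 and 7073 CPM.

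The chains were not in a fixed ratio. In macrophage-like cells C1qa gave 40.3% and 40.2% of the C1q UMIs, C1qb 33.9% and 33.1%, and C1qc 25.8% and 26.7%. In resident M1 cells C1qa took 42.5% and 42.0% and C1qb 30.4% and 30.5%. C1qb was the most frequent chain in classical monocyte-like cells, at 40.4% and 45.6%, in cDC2-like cells (conventional dendritic cells of the second type) at 44.2% and 45.0%, and in M4 cells at 40.9% and 42.5%. T cell-like cells, at 34.7% and 34.2% C1qb, lay between these. The shift towards C1qb in monocyte-like, cDC2-like and M4 cells was seen in both libraries, as the plot of chain proportions shows. Patrolling monocyte-like cells had 45.8% C1qb in the treated-labelled library and 38.6% in the control-labelled library, the latter from 345 C1q UMIs.

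**Figure D1:**
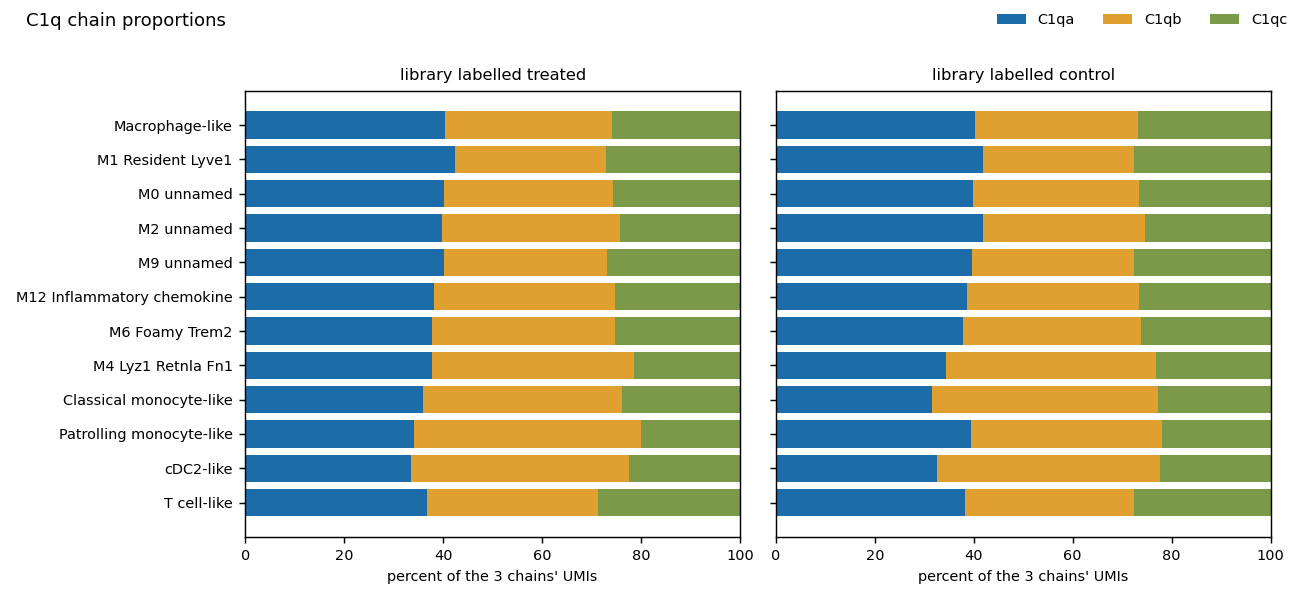
Share of each C1q chain (horizontal axis, percent of the UMIs of the 3 chains) in cell classes and macrophage-like sub-clusters (vertical axis), 1 panel per library. C1qb takes 30.4% and 30.5% in resident M1 cells and 40.4% and 45.6% in classical monocyte-like cells.

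Most macrophage-like cells carried all 3 chains together. At 2000 UMIs per cell, 87.5% of 1730 cells in the treated-labelled library (interval 85.9 to 89.0) and 91.1% of 1374 in the control-labelled library (89.5 to 92.6) had a UMI of each chain. In M1 cells the shares were 98.0% in both. Cells with none of the chains were 5.61% and 4.37% of thinned macrophage-like cells. The median thinned cell held 22 and 25 C1q UMIs.

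**Figure D2:**
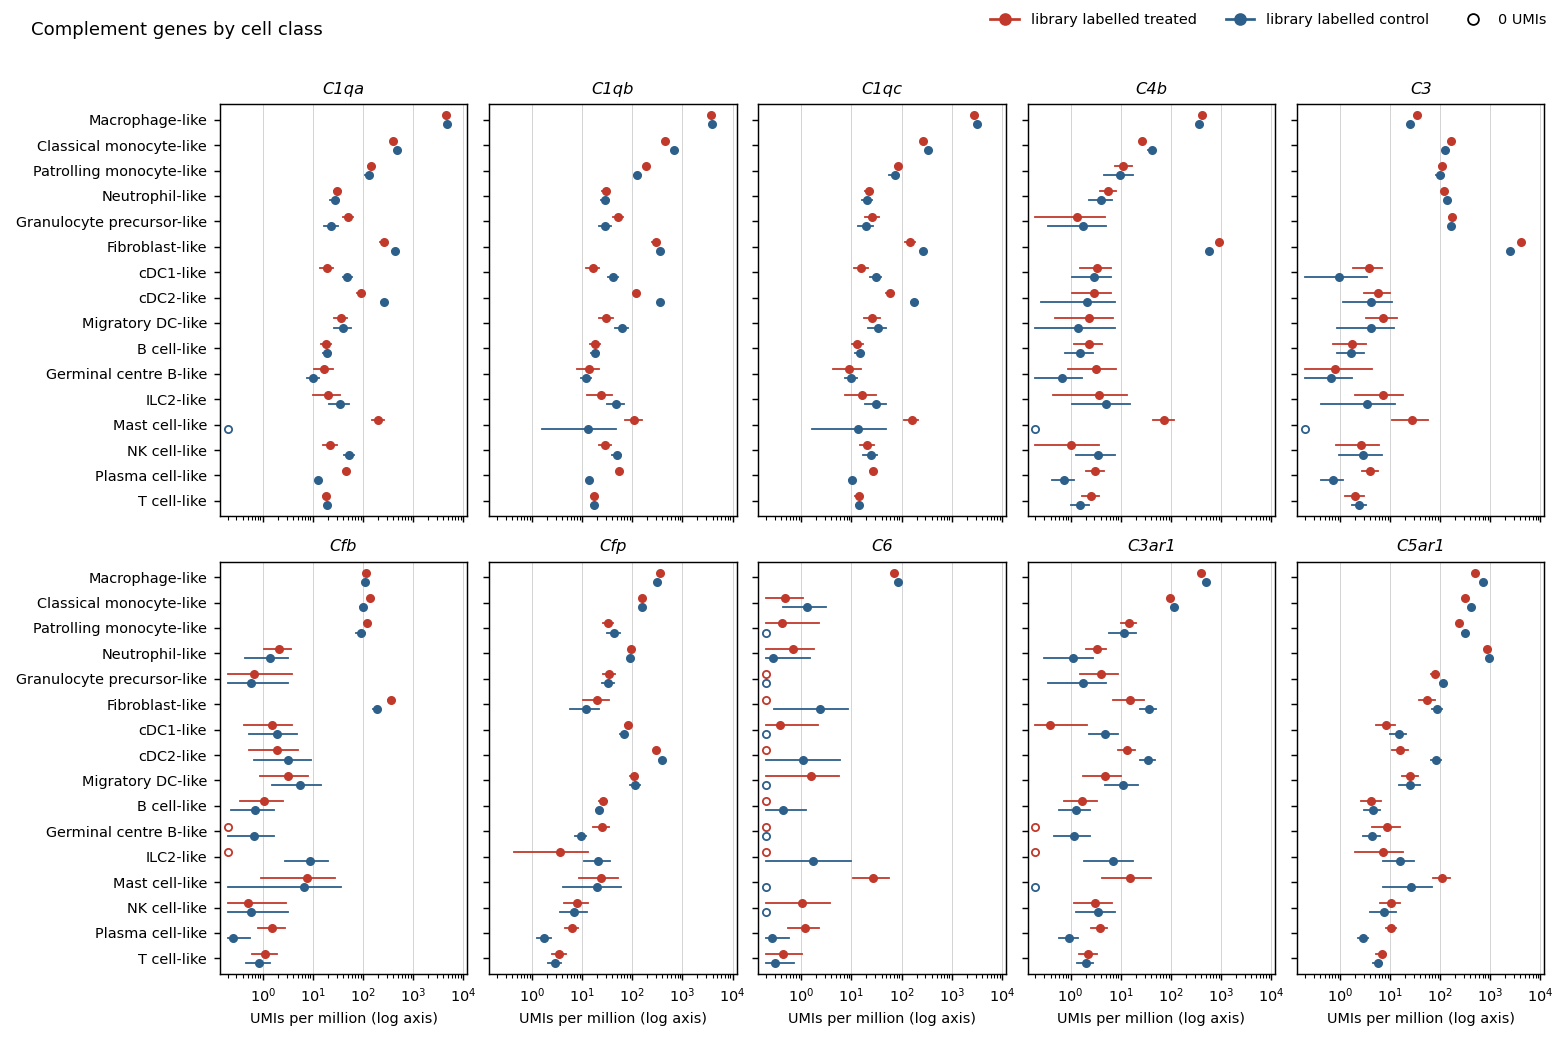
Level of each gene (horizontal log axis, CPM) in each cell class with at least 50 cells in both libraries (vertical axis), with exact 95% counting intervals as lines. Open points at the left edge are classes with 0 UMIs. The C1q chains peak in macrophage-like cells, C3 in fibroblast-like cells at 4037 and 2472 CPM, and C5ar1 in neutrophil-like cells at 875 and 926 CPM.

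C4b (chromosome 17, 34728380 to 34743882), the classical pathway component cut next after C1q binds, was shared by macrophage-like and fibroblast-like cells. Its level was 416 CPM (405 to 428) and 366 CPM (354 to 378) in macrophage-like cells and 929 CPM (853 to 1009) and 568 CPM (518 to 622) in fibroblast-like cells. Macrophage-like cells held 83.0% and 82.7% of all C4b UMIs. Classical monocyte-like cells held 27.1 and 41.3 CPM, and T cell-like cells 2.52 and 1.57 CPM. Among sub-clusters C4b was 797 and 727 CPM in M1, 1124 and 878 CPM in the small serosal M11, 118 and 158 CPM in M12, and 43.0 and 15.6 CPM in foamy M6. The order of M1 over M12 over M6 held in both libraries with no overlap of intervals. Summed markers of fibroblasts were 12.7 and 13.6 CPM in macrophage-like cells against 11302 and 8921 CPM in fibroblast-like cells. Of macrophage-like cells with a C4b UMI, 6.97% and 7.07% had a fibroblast marker UMI, against 5.34% and 6.70% of those without. The part of fibroblast RNA in the C4b level was not tested. The near-identical copy C4a was counted in 16 UMIs among all kept cells of the treated-labelled library, and the sources used here do not give how reads shared by the 2 genes were assigned.

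C3 (chromosome 17, 57203970 to 57228136), the component on which all pathways converge, had a different home. Fibroblast-like cells held 4037 CPM (3877 to 4201) and 2472 CPM (2366 to 2581), although they were only 98 and 116 cells, and they held 38.8% and 53.3% of all C3 UMIs. In the same cells summed neutrophil markers were 6645 and 2517 CPM and summed macrophage markers 1339 and 1268 CPM. Plasma cell markers moved the other way, at 1068 and 6043 CPM, and smooth muscle markers were 1142 and 515 CPM. The part of these in the differences between libraries, of C3 and of C4b and Cfb in the same cells, was not tested. Granulocyte precursor-like cells followed at 170 and 168 CPM, then classical monocyte-like cells at 168 and 124 CPM and neutrophil-like cells at 120 and 134 CPM, which changed places between libraries, and then patrolling monocyte-like cells at 107 and 101 CPM. Macrophage-like cells were low, at 34.7 CPM (31.6 to 38.1) and 25.6 CPM (22.5 to 28.9), above the 1.999 and 2.41 CPM of T cell-like cells. Of the kept cells thinned to 2000 UMIs, 27.3% and 21.7% of classical monocyte-like cells had a C3 UMI, against 6.1% and 4.1% of macrophage-like cells. Its promoter is shown because it is the only matched member promoter with TTGCGAAA, a C/EBP-like motif (TTTCGCAA on the other strand), which lies at -45. C/EBP factors act in myeloid cells and fibroblasts. Capitals mark that motif, and 0.143% of all promoters of the same length held TTGCGAAA on either strand. Since the promoter is shown for holding these letters, the match is no further result. It is a description and not a site, and binding of C/EBP factors was not tested.
C3, chr17:57228137-57228386, minus strand: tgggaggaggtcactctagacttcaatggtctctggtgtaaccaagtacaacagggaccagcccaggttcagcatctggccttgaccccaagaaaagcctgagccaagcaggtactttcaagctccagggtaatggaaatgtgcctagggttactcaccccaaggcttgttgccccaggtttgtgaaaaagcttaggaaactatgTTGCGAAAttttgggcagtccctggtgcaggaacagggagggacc

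Cfb (chromosome 17, 34856374 to 34862518), which pairs with C3 to build the alternative convertase, was at similar levels in monocyte-like and macrophage-like cells. Its level was 139 and 98.2 CPM in classical monocyte-like cells, 121 and 89.99 CPM in patrolling monocyte-like cells, and 114 and 108 CPM in macrophage-like cells. Fibroblast-like cells were higher, at 355 CPM (309 to 407) and 187 CPM (159 to 219). Neutrophil-like cells held only 2.10 and 1.37 CPM of Cfb, close to the 1.13 and 0.843 CPM of T cell-like cells, although their C3 level was 120 and 134 CPM. Among macrophage-like sub-clusters Cfb was 183 and 166 CPM in resident M1, 17.8 and 29.4 CPM in M12, and 21.0 and 1.30 CPM in foamy M6, the last from 24 UMIs and 1 UMI. An annotated gene on the same strand overlaps 6107 bases of Cfb. It is not among the measured genes, and the sources used here do not give whether its reads were counted as Cfb.

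Cfp (chromosome X, 20925454 to 20931555), properdin, was spread over the myeloid cells and dendritic cells. It was 359 and 318 CPM in macrophage-like cells, 301 and 384 CPM in cDC2-like cells, 159 and 155 CPM in classical monocyte-like cells, 107 and 114 CPM in migratory dendritic-like cells, 94.0 and 91.1 CPM in neutrophil-like cells, and 81.8 and 67.3 CPM in cDC1-like cells. The first 2 changed places between libraries. Patrolling monocyte-like cells were low at 32.9 and 43.1 CPM. B cell-like cells held 26.5 and 22.1 CPM, above the 3.48 and 2.83 CPM of T cell-like cells. In M4, which was lowest in C1q among named sub-clusters, Cfp was 425 and 475 CPM, close to the 502 and 434 CPM of M1. The foamy M6 and the inflammatory M12 were low, at 99.1 and 79.4 CPM and at 113 and 97.3 CPM.

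C6 (chromosome 15, 4727175 to 4814967), a part of the membrane attack complex, was the most restricted member. Macrophage-like cells held 96.0% and 97.2% of its 941 and 845 UMIs. Its level was 71.0 CPM (66.4 to 75.7) and 83.3 CPM (77.7 to 89.2) there, and 0.473 and 1.31 CPM in classical monocyte-like cells, from 5 UMIs in each library. Within macrophage-like cells it followed the resident pole, with 201 CPM (185 to 218) and 203 CPM (185 to 223) in M1. The foamy M6 had 1 UMI in each library, 0.877 and 1.30 CPM, and M12 had 8.90 and 4.59 CPM. Serosal M11, which is high in C4b, had 0 C6 UMIs in both libraries, where 3 UMIs would have given 9.89 and 15.8 CPM. At 2000 UMIs per cell, 30.2% and 33.8% of M1 cells had a C6 UMI. Cells with UMIs of both C6 and C4b were 8.73% and 9.68% of thinned macrophage-like cells, where unrelated detection would give 4.99% and 6.12%.

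**Figure D3:**
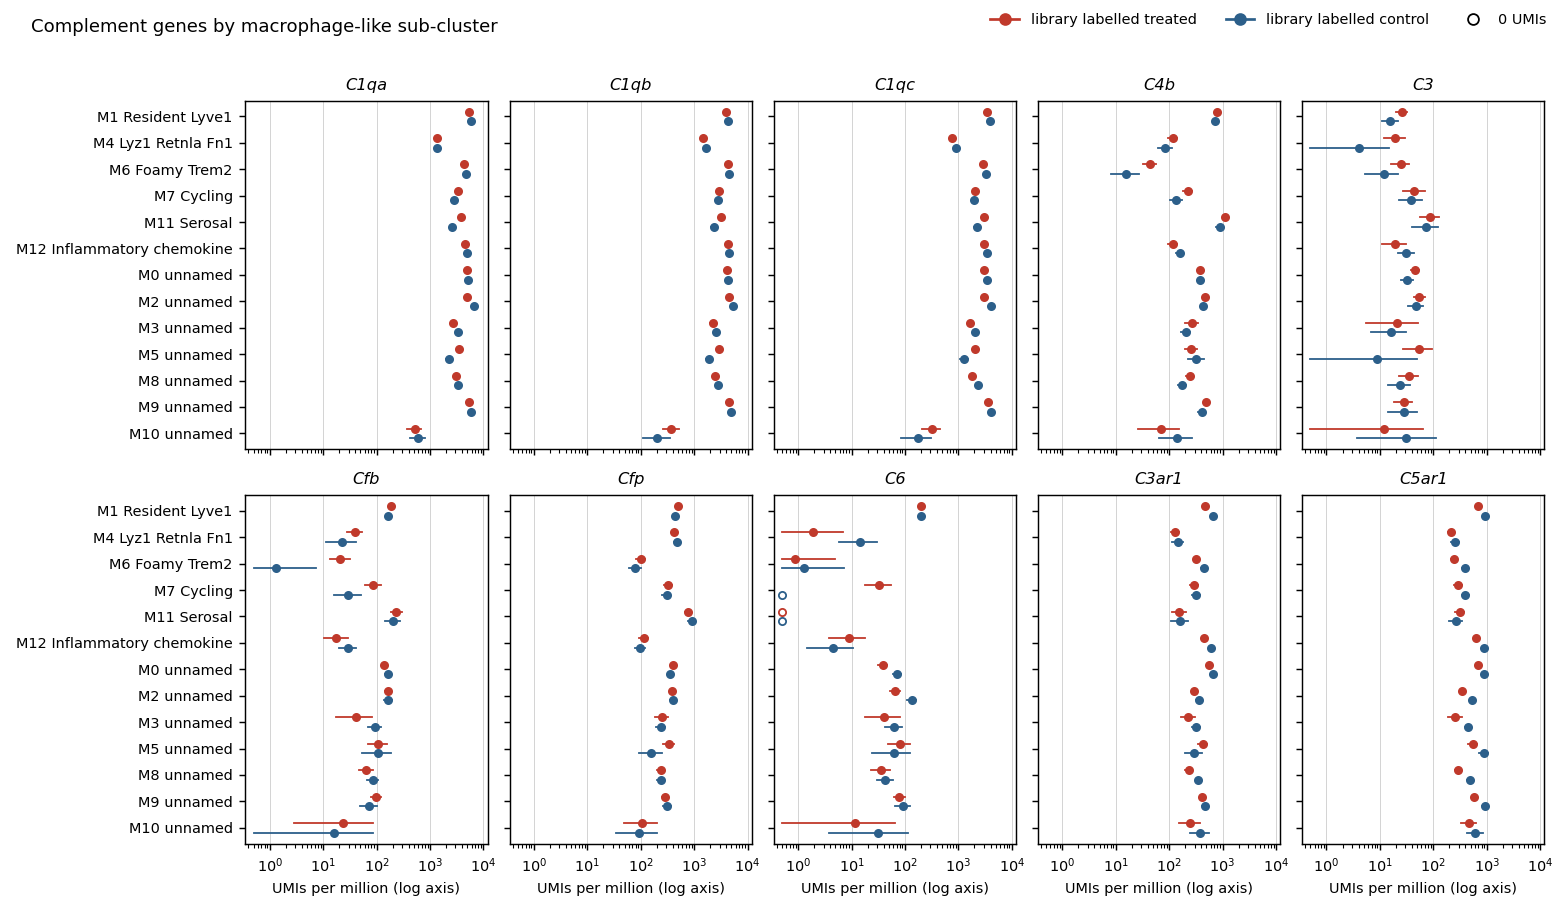
Level of each gene (horizontal log axis, CPM) in each macrophage-like sub-cluster (vertical axis, named ones first), with exact 95% counting intervals as lines. Open points at the left edge mark 0 UMIs. C6 and C4b are high in resident M1 (201 and 203 CPM of C6) and low in foamy M6, while the C1q chains are low in M4 and M10.

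The receptors divided the myeloid cells. C3ar1 (chromosome 6, 122847138 to 122856161), the C3a receptor, was 391 and 510 CPM in macrophage-like cells and 95.9 and 114 CPM in classical monocyte-like cells. Neutrophil-like cells held 3.32 and 1.10 CPM, close to the 2.26 and 1.99 CPM of T cell-like cells. C5ar1 (chromosome 7, 16246743 to 16259540), the C5a receptor, was highest in neutrophil-like cells, at 875 CPM (851 to 900) and 926 CPM (895 to 958). Macrophage-like cells held 504 and 712 CPM of C5ar1, classical monocyte-like cells 312 and 417 CPM, and patrolling monocyte-like cells 242 and 309 CPM. In those patrolling cells C3ar1 was only 14.6 and 11.5 CPM. At 2000 UMIs per cell, 31.8% and 45.8% of macrophage-like cells had UMIs of both receptors, close to the 29.9% and 43.4% that unrelated detection would give. Among sub-clusters C5ar1 was lower in M6 (241 and 394 CPM) than in M1 (689 and 942 CPM), and M4 was the lowest named sub-cluster for C3ar1 in both libraries, at 131 and 147 CPM.

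The libraries were then compared within macrophage-like cells. A gene counted as different where it passed 1.5-fold with a counting interval that excluded 0, among genes with at least 50 UMIs and 20 CPM in 1 library. None of the 10 members did, where 3.06% of 5916 genes did, 1.35% higher and 1.71% lower in the treated-labelled library. The median log2 ratio of the members, treated over control, was -0.09, and that of 12902 genes with at least 20 UMIs was 0.03. The C1q chains differed little, with log2 ratios of -0.11 for C1qa, -0.08 for C1qb and -0.16 for C1qc, and their summed level had -0.11 (-0.12 to -0.10). C4b had 0.18 (0.12 to 0.25), Cfp 0.17 (0.11 to 0.24) and Cfb 0.08 (-0.04 to 0.19). C3 had 0.44 (0.22 to 0.67) on its low level of 34.7 against 25.6 CPM, and C6 had -0.23 (-0.37 to -0.09). In the 823 and 513 cells with at most 1 UMI of 13 markers of other lineages, C3 had -0.01, and 1 member passed the limits, C5ar1 at -0.59, where 5.55% of genes did. With monocyte-like cells added, 4 members passed them where 4% of genes did, C3 at 0.77, C5ar1 at -0.60, C3ar1 at -0.67 and C6 at -0.67. In that pooled set C4b turned to -0.24 and Cfp to -0.06, and the mixture of classes differed between libraries.

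The receptors had the lowest ratios of the members. C5ar1 had a log2 ratio of -0.50 (-0.55 to -0.45), which is 504 against 712 CPM, and C3ar1 one of -0.38 (-0.44 to -0.33), which is 391 against 510 CPM. Across the 8 sub-clusters with at least 50 cells per library and enough UMIs, C5ar1 was lower in the treated-labelled library in 8, and the interval excluded 0 in 7. It passed 1.5-fold in 4 of them, with -0.71 in foamy M6, -0.67 in M9 (unnamed, with the heat shock gene Hspa1b among its leading genes), -0.60 in M2 and -0.74 in M8. Of the genes measured in these 4 sub-clusters, 6.06%, 2.80%, 3.62% and 4.77% were lower past the same limits. C3ar1 was lower in 8 of 8, with the interval off 0 in 6, and passed 1.5-fold in M8 alone, at -0.60. M8, an unnamed sub-cluster, had T cell genes among its leading genes. C5ar1 was also lower in classical monocyte-like cells, at 312 against 417 CPM, and in patrolling monocyte-like cells, at 242 against 309 CPM, but differed less in neutrophil-like cells, at 875 against 926 CPM. These differences between classes were not tested. In patrolling monocyte-like cells summed neutrophil markers were higher in the control-labelled library (values given below with C1qb). Their part in the lower C5ar1 there was not tested. Summed neutrophil markers moved with the library as well, at 678 CPM in treated and 415 CPM in control macrophage-like cells, and summed classical monocyte markers stood at 696 and 464 CPM. B cell markers, at 35.5 and 100.4 CPM, and plasma cell markers, at 192 and 298 CPM, moved the other way. In foamy M6 the neutrophil markers were 872 and 148 CPM. Their part in the result was not tested.

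**Figure D4:**
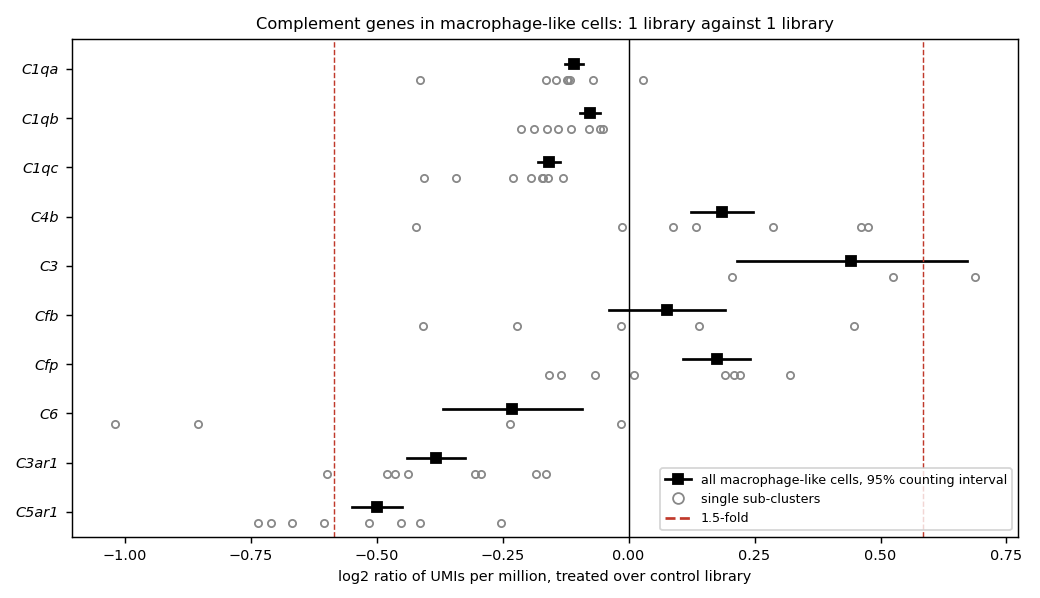
Log2 ratio of CPM, treated over control library (horizontal axis), for each member (vertical axis) in all macrophage-like cells (squares, lines are 95% counting intervals) and in single sub-clusters (open circles). Dashed lines mark 1.5-fold. No square passes them, C5ar1 lies at -0.50, and its sub-clusters all lie below 0. Those of C3ar1, C1qb, C1qc and C6 do as well.

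C6 differed by sub-cluster. In resident M1 it stood at 201 and 203 CPM, a log2 ratio of -0.02 (-0.20 to 0.17). In M0 it was 38.6 against 69.9 CPM (-0.86, from -1.24 to -0.47) and in M2 66.4 against 135 CPM (-1.02, from -1.45 to -0.59), both past 1.5-fold. In M2 summed classical monocyte markers were 1862 and 1064 CPM and endothelial markers 191 and 345 CPM, and their part in the result was not tested. M0, led by Il10, Ccl7 and Ccl2, and M2 bear no state name. Lower genes past these limits were 1.72% of those measured in M0 and 3.62% in M2. C3 was the single member past 1.5-fold in M1, at 25.4 against 15.7 CPM (0.69, from 0.08 to 1.32), from 71 and 35 UMIs, where 6.64% of genes were higher. Summed classical monocyte markers were 373 and 263 CPM in those cells.

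Outside macrophage-like cells, C1q UMIs differed most between libraries in classes that held few of them. In cDC2-like cells C1qb was 118 against 361 CPM (log2 ratio -1.61), C1qa 89.5 against 262 CPM (-1.55) and C1qc 59.8 against 180 CPM (-1.59), and C5ar1 was 16.1 against 81.9 CPM (-2.35). There 4 of 5 measured members were lower, where 3.58% of genes were. Only 30% and 36.1% of cDC2-like cells held any C1q UMI, and 1 cell held 21.6% and 22.7% of these UMIs. Summed macrophage markers in the same cells were 807 and 1009 CPM, and their part in the result was not tested. When complement genes were kept for clustering the C1q ratios in cDC2-like cells turned, to 0.64 for C1qa, 0.81 for C1qb and 0.32 for C1qc. At clustering resolution 0.5, C1qa in cDC2-like cells was -0.56 (-1.13 to 0.02) and C1qc -1.17, neither of them past all limits. C5ar1 there was -0.89 with doublet calls kept. In classical monocyte-like cells 2 of 9 measured members passed the limits, C1qb at 447 against 676 CPM (-0.60, from -0.67 to -0.53) and C4b at 27.1 against 41.3 CPM (-0.61, from -0.89 to -0.32), where 1.73% of genes were lower. With at most 10% mitochondrial UMIs these became -0.34 and -0.48, with doublet calls kept C4b was -0.40, and C1qb was -0.52 at clustering resolution 2 and -0.55 without its top cell, all under 1.5-fold. In the remaining classes, C1qb passed the limits in patrolling monocyte-like cells, at 192 against 127 CPM (0.59, from 0.31 to 0.88), where 4.16% of genes were higher, but turned to between -1.33 and -0.50 in 5 alternatives. Summed neutrophil markers in those cells were 1243 and 7016 CPM, and their part in the result was not tested. All 3 chains passed the limits in plasma cell-like cells (5.63% of genes higher), with C1qa at 45.2 against 12.8 CPM, and all 3 in cDC1-like cells (2.67% lower), with C1qa at 19.1 against 49.0 CPM. C1qa and C1qb passed them in NK cell-like cells (2.98% lower), with C1qa at 22.4 against 52.8 CPM. In T cell-like cells C1qa was 18.0 and 19.3 CPM, below the higher value of each of these 3 classes. The other members were under the limits on UMIs or CPM in plasma cell-like cells. They too were higher there, with log2 ratios from 1.84 (Cfp) to 2.62 (Cfb), the last from 12 and 6 UMIs. The NK cell-like values turned to 0.57 for C1qa and 0.51 for C1qb with doublet calls kept, and were -0.29 and -0.01 without the cell with most UMIs of the gene. In cDC1-like cells C1qc was -0.47 with doublet calls kept, no longer past 1.5-fold. In group 2 innate lymphoid cell-like (ILC2-like) cells each chain was under the limits on UMIs or CPM. Their summed C1q was 59.7 against 112 CPM (-0.91, from -1.56 to -0.29), where 5.58% of genes were lower. It rested on 33 and 65 UMIs and stayed below 0 in 9 of 9 alternatives. The kept classical monocyte-like cells numbered 1413 and 489. In those cells C3 was 168 against 124 CPM and Cfb 139 against 98.2 CPM, both higher by less than 1.5-fold.

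Over all kept cells, the levels also follow how many cells of each class were captured, so these levels alone cannot tell more cells from more RNA per cell. C3 was 87.7 against 47.0 CPM, Cfb 50.7 against 22.4 CPM, Cfp 125 against 65.4 CPM and C4b 90.2 against 53.4 CPM. These 4 of 9 measured members were past 1.5-fold and higher in the treated-labelled library, where 13.2% of genes were. Within macrophage-like cells the same 4 genes had log2 ratios between 0.08 and 0.44. Classical monocyte-like cells were 11.97% and 4.24% of kept cells.

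The wider pathway was read from a list of 42 other complement genes. In macrophage-like cells 10 of them had enough UMIs and 0 passed 1.5-fold. The nearest was Vsig4, a C3b receptor of resident macrophages, at 58.5 against 83.2 CPM (-0.51, from -0.65 to -0.36). Of the classical and lectin pathway, C1s1 and C1ra, the proteases bound to C1q, were highest in fibroblast-like cells, at 674 and 407 CPM and at 369 and 261 CPM. In contrast Fcna, a ficolin that recognises sugars, was highest in macrophage-like cells, at 233 and 270 CPM, and Fcnb, its relative of maturing neutrophils, in granulocyte precursor-like cells, at 191 and 388 CPM. The alternative pathway protease Cfd peaked in fibroblast-like cells, at 151 and 1048 CPM. Of the terminal genes, C7 peaked in fibroblast-like cells at 131 and 251 CPM, C9 reached 5.34 and 9.23 CPM in macrophage-like cells, Hc had at most 5.43 CPM and C8g at most 2.13 CPM in any class. C6 was the terminal gene with the most UMIs in macrophage-like cells.

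Of the soluble inhibitors Serping1, the C1 inhibitor, peaked in fibroblast-like cells at 1931 and 1627 CPM. The same cells held the highest levels of the inhibitors Clu and Vtn, with 342 and 1033 CPM of Clu and 18.4 and 24.1 CPM of Vtn. Of the membrane regulators Cd55 peaked in mast cell-like cells at 576 and 509 CPM, Cr1l had 97.3 CPM there in the treated-labelled library, and Cd59a and Cd46 had at most 18.1 and 12.1 CPM in any class. Of the other receptors Itgam, a chain of complement receptor 3, peaked in neutrophil-like cells at 518 and 454 CPM, its partner Itgb2 in patrolling monocyte-like cells at 419 and 331 CPM, C1qbp in germinal centre B-like cells at 304 and 314 CPM, and Cd93 in mast cell-like cells at 202 and 194 CPM.

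Finally, the genes most like each member in pattern were sought over 23 classes and sub-clusters with at least 50 cells in each library, by Pearson's r of the mean log2(CPM + 1) over both libraries, among 9008 genes. These correlations describe a pattern over units that share the same libraries and, in part, the same background, and they carry no test. Summed C1q was most like Rab11fip5 (0.97), Fcrls (0.97) and Mertk (0.97), the last a receptor for dying cells. C6 was most like Cd163 (0.98), Ccl8 (0.97) and Lyve1 (0.96), and genes most like C4b included Gas6 (0.96) and Agmo (0.96). Cd163, Lyve1 and Gas6 are on the marker list that named the resident sub-cluster, where C6 and C4b were high. These likenesses are therefore not separate from that result. Fcrls and Cxcl2 are on marker lists of other states. Those most like C3ar1 included Kcnk13 (0.97) and Sash1 (0.96), and C5ar1 was most like Cd300lb (0.96), Cxcl2 (0.96) and Fcgr3 (0.96). The values were lower for C3, with Cebpd (0.89), Mgst1 (0.89) and Tnfaip6 (0.86), for Cfb, with Lifr (0.92), Cmklr1 (0.89) and Fap (0.89), and for Cfp, with B4galt6 (0.91), Ccl6 (0.90) and Pirb (0.89).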

How the data were processed

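Mouse aortic CD45+ leukocytes were profiled in 2 droplet libraries, 1 per group. The deposited values are UMI counts per gene and barcode with no normalization, per the file headers and the values, from a 3′ kit, per the labels' protocols. Cell Ranger 3.1.0, Seurat 4.4.0 and mm10 stand in the submitters' processing notes, and the file headers name cellranger 7.2.0. Totals were 77856529 UMIs over 13155 barcodes (treated) and 88567528 over 12516 (control).

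Barcodes with at least 500 genes and at most 15% mitochondrial UMIs were kept. Scrublet marked 684 (5.20%) and 533 (4.26%) barcodes, against 10.5% and 10.0% expected by a preset rate for the number of barcodes. Marked barcodes were removed, and doublets may remain. Cells were clustered with scanpy 1.11.5 and igraph 0.11.9 (2000 variable genes, 30 components, 15 neighbours, Leiden resolution 1, macrophage-like cells at 0.5), without the 52 complement genes. Clusters were named from marker lists, with dendritic clusters split again, and a cluster led by another class stayed unnamed. Counts were summed per library and class. The ratio procedure was tested on simulated data.

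Genes named are the 10 members, other complement genes past the limits in macrophage-like cells or among the 4 highest of their role, and the 3 genes most like each member. Some genes that these rules name are not reported here. Vsig4 and the genes that lead sub-clusters were named after their values were seen. Members and lists were chosen with earlier results of these data known. Because of 1 library per group, the planned designs held no test. Alternatives were other cell filters, clustering resolutions, doublet handling, scaling, thinning to 1000 UMIs, a 2-fold limit, and leaving out the cell with most UMIs.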

Additional observations from a re-analysis of the deposited data

Results flagged for a closer look

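The direction of the C1q chains differed between cell classes, past 1.5-fold and with counting intervals off 0 both ways, and these differences between classes were not tested. C1qa had log2 ratios, treated over control, of 1.83 in plasma cell-like cells, and of -1.24 in NK cell-like, -1.36 in cDC1-like and -1.55 in cDC2-like cells. C1qb had 0.59 in patrolling monocyte-like and 1.96 in plasma cell-like cells, and -0.60 in classical monocyte-like, -0.76 in NK cell-like, -1.35 in cDC1-like and -1.61 in cDC2-like cells. C1qc had 1.39 in plasma cell-like cells, -0.95 in cDC1-like and -1.59 in cDC2-like cells. In plasma cell-like cells 5.63% of genes were higher past the same limits, in NK cell-like cells 2.98% were lower, in cDC1-like cells 2.67% and in cDC2-like cells 3.58%, and in patrolling monocyte-like cells 4.16% were higher.

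Depth and single cells stand beside these values. Plasma cell-like cells held 126 and 37.0 CPM of summed C1q, against 49.1 and 50.7 CPM in T cell-like cells, and their summed macrophage markers were 169 and 121 CPM. The rise there was not particular to C1q. The median log2 ratio of the 8 members with at least 20 UMIs was 1.91, against -0.01 for all such genes. In NK cell-like cells of the control-labelled library, 1 cell of 385 held 59.3% of the C1q UMIs. In cDC1-like cells 1 cell held 29.9% and 42.9%. Without the cell with most UMIs of the gene, C1qa was -0.29 and C1qb -0.01 in NK cell-like cells, and C1qb was -1.12 and C1qc -0.62 in cDC1-like cells, none of them past the limits on fold, interval and UMIs.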

How the results depend on the processing

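No paired analysis was possible because each group has 1 library and no replicate number is shared. Depth limits low members: C6, C3 and Cfb in foamy macrophages and C3, C3ar1, C4b, C6 and Cfb in lymphoid classes rest on few UMIs. C1qa had 346 and 299 UMIs in plasma cell-like cells, but 43 and 90 in NK cell-like and 11 and 20 in ILC2-like cells. Every interval covers counting error only. At resolution 0.5 the monocyte clusters stayed unnamed and gave no value.

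The summed C1q log2 ratio in macrophage-like cells, -0.11, stayed below 0 in 14 of 14 alternatives. It moved by more than its counting interval to -0.16 at clustering resolution 0.5 and without unnamed sub-clusters (-0.16), to -0.15 with at least 1000 genes, -0.13 with at most 10% mitochondrial UMIs, -0.15 centred on the median of all genes, -0.23 with at most 1 UMI of other lineages, -0.13 with equal sub-cluster weights, -0.50 with monocyte-like cells, and -0.14 without sub-clusters led by other lineages, an alternative chosen after seeing the data. The median of the members, -0.09, became -0.15 (resolution 0.5), -0.13 (1000 genes), -0.12 (10% mitochondrial), -0.13 (centred), -0.22 (1 UMI of other lineages), -0.48 (with monocyte-like cells) and -0.13 (without those sub-clusters). The count of members past 1.5-fold was 1 with at most 1 UMI of other lineages, where 5.55% of genes were. It was 4 with monocyte-like cells, where 4% of genes were.

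In macrophage-like cells 4 of 154 values turned sign: C3 (-0.01) and Cfb (-0.21) with at most 1 UMI of other lineages, and C4b (-0.24) and Cfp (-0.06) with monocyte-like cells. Outside them 36 of 79 ratios turned sign in at least 1 alternative, most of them not past 1.5-fold. Those past it that turned follow, and the cause was not tested. In NK cell-like cells with doublet calls kept, C1qa became 0.57, C1qb 0.51 and summed C1q 0.67, and summed C1q without the cell with most UMIs was 0.10. In patrolling monocyte-like cells C1qb became -1.10 (resolution 2), -1.33 (doublet calls kept), -0.83 (1000 genes), -1.10 (10% mitochondrial) and -0.50 (complement genes kept for clustering). In cDC2-like cells with complement genes kept, C1qa became 0.64, C1qb 0.81, C1qc 0.32 and summed C1q 0.63.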

Other observations

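Some clusters had leading genes of no single marker list and stayed unnamed. In cluster D.3 (216 and 99 cells) summed C1q was 2172 and 3859 CPM, Cfp 214 and 192 CPM and C3 79.3 and 136 CPM. Cluster D.1 had 227 cells in the treated-labelled library and 32 in the control-labelled library, a median of 1592 UMIs per cell, and 1276 and 396 CPM of summed C1q. Cluster D.8 (24 and 10 cells) held 44.8 and 23.8 CPM of summed C1q, near the level of T cell-like cells, yet 437 and 274 CPM of Cfp.

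Mast cell-like cells (90 and 50 cells) held 471 and 26.8 CPM of summed C1q, from 121 and 4 UMIs, and 1 cell of the treated-labelled library held 50.4% of them. Plasmacytoid dendritic-like cells (67 and 41 cells) held 88.1 and 74.96 CPM of Cfp. Germinal centre B-like cells held 24.8 and 9.34 CPM of Cfp.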
